A study of Mus musculus with 2 samples.

Results

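The genes described here are 33 genes of sterol and fatty acid synthesis, chosen by symbol from what their products are known to do, out of 27998 genes in the deposited count matrix. They fall into 4 groups by step: 8 genes of the mevalonate pathway, 11 that carry squalene to cholesterol, 6 that control this pathway or move sterols, and 8 that make, lengthen or desaturate fatty acids. The first 19 are called the sterol synthesis genes below. All 33 were found in the matrix.

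Their RNA was measured in single cells of C57BL/6J mouse embryos by droplet-based sequencing of transcript 3′ ends, in which each captured molecule is counted once through its unique molecular identifier (UMI). The control library came from embryos with a floxed Mekk3 allele and no Cre in the label, of genotypes Mekk3 fl/fl and Mekk3 fl/+. The mutant library came from Mekk3 fl/-; Tie2Cre+ embryos, in which Cre is driven by a promoter active in endothelial cells and in blood cells. Mekk3 is the kinase encoded by Map3k3. Both libraries held sorted cells (Ter119-, CD41 low or negative, CD31+, CD144+, ESAM+) of the dorsal aorta and of the vessels to yolk sac and placenta, the vitelline and umbilical arteries. Embryonic day 9.5 is in both titles, but the mutant sample's own stage field reads 9.7. The number of embryos behind each library is not given in the sources used here. With 1 library in each group there is no replicate and no test: every interval below is a 95% interval that covers counting error only, and a difference between the libraries cannot be told apart from a difference between embryos, stages or preparations.

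Cells build cholesterol from acetyl-CoA through mevalonate, isoprenoid units, squalene and lanosterol, and build fatty acids from the same precursor. Both routes are driven by the transcription factors SREBP-2 and SREBP-1, the products of Srebf2 and Srebf1. These are made as membrane-bound precursors that the escort protein SCAP carries from the endoplasmic reticulum to the Golgi for cleavage when membrane sterol is low, while the INSIG proteins hold SCAP back when sterol is plentiful. Dividing cells need both lipids for new membrane.

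The control library held 6675 cells and 60790367 UMIs, and the mutant library 3242 cells and 21512713 UMIs. A gate on 10 endothelial markers kept 6340 control cells (95%) and 3067 mutant cells (94.6%), with medians of 7523.5 and 5827 UMIs per cell, and 5 cell barcodes occurred in both libraries. All 10 markers, Pecam1 and Cdh5 among them, were detected in both. Levels are given as UMIs of a gene per 1000000 UMIs of these cells (CPM), where a count of 0 would allow up to 0.0525 CPM in control and 0.144 CPM in mutant cells. Summed blood markers reached 26.3 and 23.8 CPM, mesenchymal markers 7.95 and 8.17 CPM, and neural markers 3.47 and 3.08 CPM in control and mutant. Other sums differed between the libraries: smooth muscle genes reached 31.4 CPM in control and 153 CPM in mutant cells, 14 hypoxia-responsive genes 340 and 2153 CPM, and 15 S-phase genes 1290 and 743 CPM. The G2/M genes differed little, at 1994 and 1905 CPM (ratio 0.956). Endothelial markers summed to 4507 and 3564 CPM (ratio 0.791), venous and lymphatic markers to 467 and 316 CPM (0.677), and arterial markers to 438 and 389 CPM (0.889). Cells with at least 10 UMIs of S-phase and G2/M genes, called cycling below, were 71.6% of control and 49.1% of mutant endothelial-gated cells. Y-linked genes reached 47.6 CPM in the control and had no UMI in the mutant. Map3k3 itself was at 9.35 CPM in control and 10.6 CPM in mutant cells (ratio 1.13, 0.962 to 1.33). Which exons were deleted is not given in the sources used here, and 3′ counts of a transcript that has lost an exon elsewhere do not check the deletion.

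The promoter windows of 5 members are shown because these genes carry the main pattern: the first 4 were lower in the mutant and the fifth was higher. RefSeq windows on GRCm38.p6 run from 250 bases before to 50 after the start site and are written 5′ to 3′ along the gene. Capitals mark TCACNCCAC, a pattern of the sterol regulatory element bound by SREBP, and CCAAT, which reads ATTGG on the other strand and is the core of the box bound by NF-Y, a known partner of SREBP. The Hmgcs1 window is chr13:119690101-119690400 on the plus strand, that of Idi1 chr13:8885356-8885655 (plus), that of Msmo1 chr8:64733529-64733828 (minus), that of Insig1 chr5:28071162-28071461 (plus) and that of Insig2 chr1:121327629-121327928 (minus). Hmgcs1 was shown because it alone among the members with a window held the first pattern; the other windows were picked after their levels were seen.
Hmgcs1: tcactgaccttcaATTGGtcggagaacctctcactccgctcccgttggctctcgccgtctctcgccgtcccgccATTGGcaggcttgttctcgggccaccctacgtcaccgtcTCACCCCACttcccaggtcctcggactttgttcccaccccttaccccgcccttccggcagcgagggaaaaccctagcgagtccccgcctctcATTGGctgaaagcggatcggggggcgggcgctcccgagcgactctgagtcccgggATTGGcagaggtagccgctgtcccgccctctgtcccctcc
Idi1: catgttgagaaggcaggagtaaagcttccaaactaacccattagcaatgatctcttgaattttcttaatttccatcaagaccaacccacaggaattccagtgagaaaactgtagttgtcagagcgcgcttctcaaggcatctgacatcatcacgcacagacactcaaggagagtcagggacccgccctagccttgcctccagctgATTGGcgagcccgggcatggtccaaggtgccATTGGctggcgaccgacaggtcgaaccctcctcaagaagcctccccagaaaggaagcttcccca
Msmo1: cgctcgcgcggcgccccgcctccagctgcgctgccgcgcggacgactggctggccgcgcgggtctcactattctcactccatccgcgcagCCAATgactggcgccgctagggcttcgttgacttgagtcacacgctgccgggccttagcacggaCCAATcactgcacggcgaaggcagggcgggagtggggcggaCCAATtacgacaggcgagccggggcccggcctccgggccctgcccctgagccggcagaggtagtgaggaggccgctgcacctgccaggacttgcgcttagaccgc
Insig1: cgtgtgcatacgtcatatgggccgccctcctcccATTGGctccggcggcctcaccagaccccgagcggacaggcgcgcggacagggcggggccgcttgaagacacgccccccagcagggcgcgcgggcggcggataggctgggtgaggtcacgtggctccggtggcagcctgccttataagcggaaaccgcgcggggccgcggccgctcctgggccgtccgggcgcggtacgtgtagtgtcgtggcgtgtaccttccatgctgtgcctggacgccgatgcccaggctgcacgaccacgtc
Insig2: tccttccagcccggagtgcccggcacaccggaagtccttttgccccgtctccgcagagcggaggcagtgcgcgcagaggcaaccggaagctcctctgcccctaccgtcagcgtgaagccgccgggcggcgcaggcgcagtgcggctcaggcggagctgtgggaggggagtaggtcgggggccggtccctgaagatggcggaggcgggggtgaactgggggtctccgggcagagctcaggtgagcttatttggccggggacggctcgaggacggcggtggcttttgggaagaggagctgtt

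The table held 34 windows for 26 of the 33 members. TCACNCCAC, searched on both strands, occurred in 1 of these 34 (2.94%), that of Hmgcs1, where TCACCCCAC begins 137 bases before the start site; it occurred in 1.24% of all 32851 windows. CCAAT was found in 22 of the 34 (64.7%), against 37.4% of all windows and 37.8% of the windows of genes measured in these cells. GGGCGG, the Sp1 box, was found in 25 of 34 (73.5%), against 35.7% of all windows and 66.3% of those of measured genes. CACGTG, the E-box that SREBP can also bind, was found in 6 of 34 (17.6%), against 7.15% and 10.2%. The Hmgcs1 window holds 4 CCAAT matches, that of Msmo1 3, that of Idi1 2 and that of Insig1 1. The Insig2 window shown holds none, but it lies inside the annotated gene (chr1:121304353-121332589, minus strand). Another of the 3 Insig2 windows, which begins at 121332540 and spans the annotated 5′ end of the gene, holds 3. No motif contains another, though neighbouring matches may share letters, and a match is a string in a window, not a bound site.

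In endothelial-gated cells, most of the 33 genes were lower in the mutant than in the control, and the sterol synthesis genes held most of the lowest ratios. A gene counted as measured where its mean level over both libraries was at least 5 CPM, which 27 of the 33 passed, and as lower or higher where the ratio of mutant to control was past 1.5-fold. By that rule 19 of the 27 measured members were lower and 2 were higher, against 20.0% of all 8553 measured genes that were lower and 11.8% that were higher. Divided by totals without mitochondrial, ribosomal-protein and hemoglobin genes, 20 of 29 measured members were lower and 2 higher, against 15.1% of all 9411 measured genes that were lower. The share of lower genes among all genes past the bound then went from 62.9% to 47.4%. The median log2 ratio of the 27 measured members was -1.05, and that of all measured genes was -0.14 (-0.01 with those totals). Of all 33 members, with no filter, 30 had a ratio below 1, and the interval lay wholly below 1 for 29 and wholly above 1 for 2. The share of all genes with a ratio or an interval below 1 was not computed, and the median ratio of all measured genes was itself below 1, at 0.909. The sum of all 33 was 1121 CPM in control and 533 CPM in mutant cells (ratio 0.475, 0.466 to 0.485). The plot of ratios shows 13 of the 27 measured members among the lowest 5% of measured genes, of which 7 (Msmo1, Idi1, Sqle, Hmgcs1, Fasn, Acat2 and Mvd) were among the lowest 1%.

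**Figure D1:**
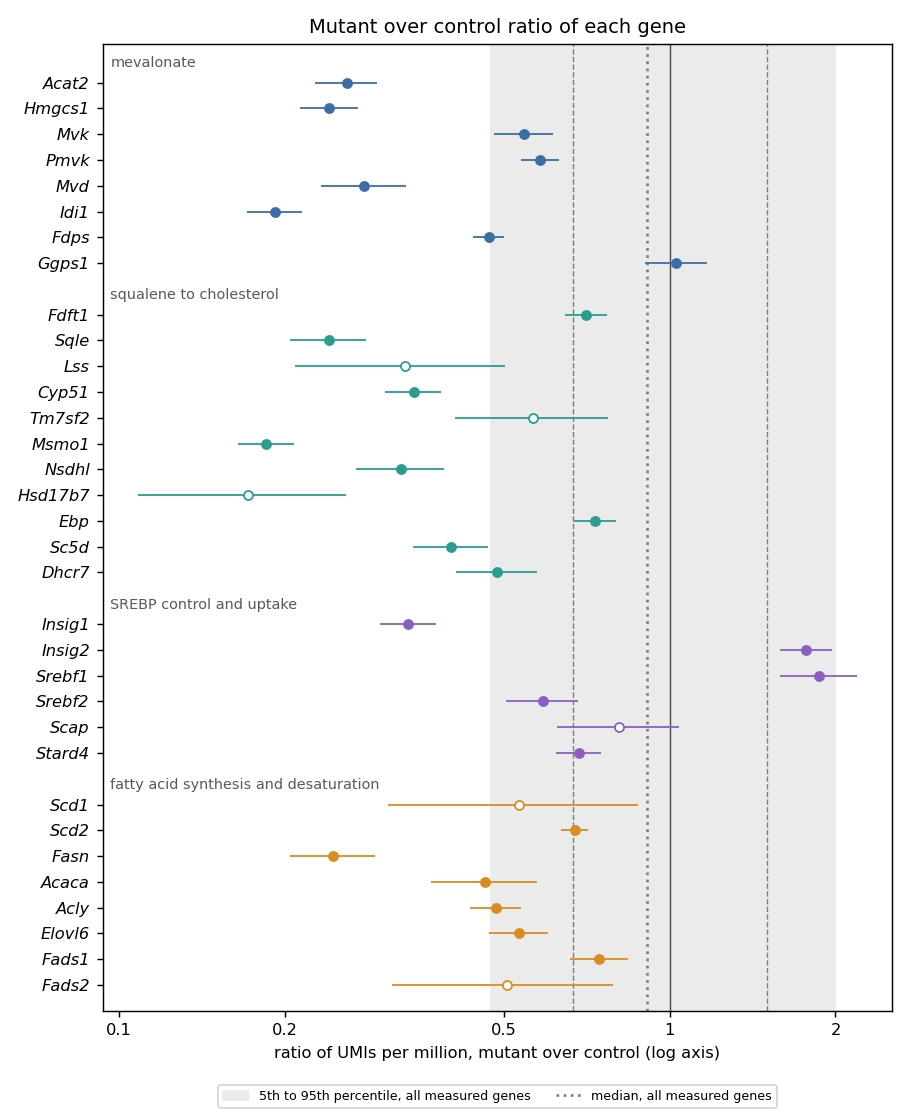
Ratio of levels in CPM, mutant over control, for each of the 33 genes in endothelial-gated cells (log axis); points are ratios, bars exact 95% intervals for counting error, and open points genes under 5 CPM. The dashed lines mark 1.5-fold either way, the dotted line the median of all measured genes and the grey band their 5th to 95th percentile (0.473 to 2.0); 30 of the 33 points lie left of 1, and Insig2 and Srebf1 lie past 1.5 on the right.

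The level plot gives the same genes as levels in each library, and the intervals of control and mutant overlap for Ggps1, Scap and Scd1.

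**Figure D2:**
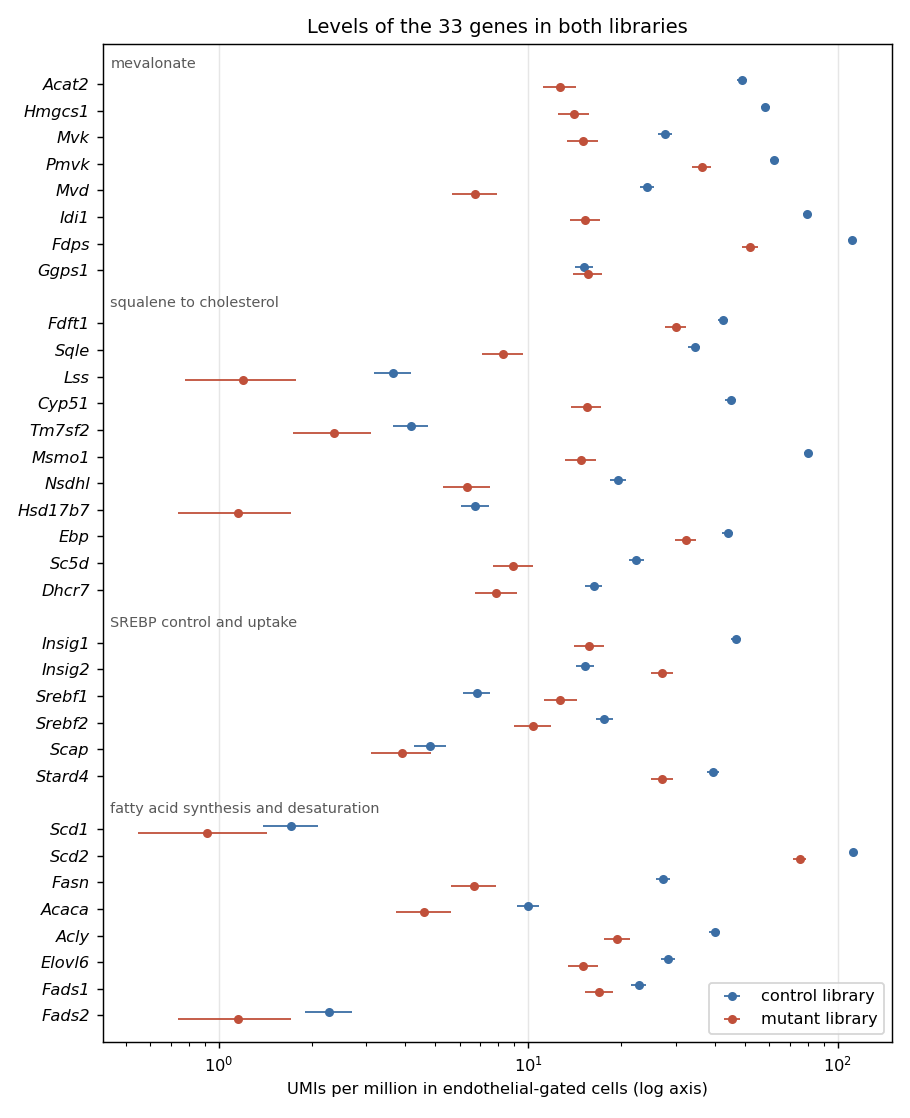
Level of each of the 33 genes in endothelial-gated cells of the control library (blue) and the mutant library (red), in CPM on a log axis; each point is 1 library and bars are exact Poisson 95% intervals. The mutant point lies left of the control point for 30 genes, with Ggps1, Insig2 and Srebf1 as the other 3.

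The mevalonate genes summed to 427 CPM in control and 168 CPM in mutant cells (ratio 0.393, 0.379 to 0.407), and 7 of the 8, all measured, were lower. Acat2, which joins acetyl-CoA units at the entry of the pathway, stood at 48.9 CPM in control and 12.6 CPM in mutant cells (ratio 0.259, 0.227 to 0.294). Hmgcs1, the synthase that makes HMG-CoA, stood at 58.3 and 14 CPM (ratio 0.241, 0.213 to 0.271). The intervals of these early steps overlapped. The kinases that follow differed less: Mvk, which phosphorylates mevalonate, stood at 27.6 and 15 CPM (0.543, 0.479 to 0.613). Pmvk, which adds the next phosphate, stood at 62.4 and 36.3 CPM (0.582, 0.537 to 0.630). Mvd, which removes the carboxyl group to give the first isoprenoid unit, stood at 24.2 and 6.73 CPM (0.278, 0.232 to 0.331), outside the intervals of both kinases. Idi1, which interconverts the isoprenoid units, had the lowest ratio of the 8, with 79.5 CPM in control and 15.2 CPM in mutant cells (0.192, 0.171 to 0.215). Fdps, which condenses the units to farnesyl diphosphate, stood at 111 and 52.1 CPM (0.469, 0.440 to 0.501). Ggps1 branches off to make geranylgeranyl diphosphate for protein prenylation rather than sterol, and its interval held 1, with 15.1 and 15.6 CPM (1.03, 0.902 to 1.17); the sign of its difference changed in 5 of 14 processing alternatives.

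The genes from squalene to cholesterol summed to 319 CPM in control and 129 CPM in mutant cells (ratio 0.403, 0.387 to 0.420). All 11 had a ratio and an interval below 1, for which no share of all genes was computed. Of the 8 measured, 6 were past 1.5-fold lower, against 20.0% of all measured genes. Fdft1, squalene synthase, had one of the smaller differences, at 42.6 CPM in control and 30.0 CPM in mutant cells (0.705, 0.644 to 0.770). Sqle, the epoxidase that acts next and is known as a control point of the route, stood at 34.4 and 8.27 CPM (0.240, 0.204 to 0.281). Cyp51, the lanosterol demethylase, stood at 45.0 and 15.4 CPM (0.343, 0.304 to 0.385). The enzymes that then strip methyl groups from the sterol ring included the lowest ratios: Msmo1, the oxidase, stood at 79.9 CPM in control and 14.8 CPM in mutant cells (0.185, 0.164 to 0.207), the lowest ratio among all measured members. Nsdhl, the dehydrogenase of the same complex, stood at 19.5 and 6.34 CPM (0.325, 0.269 to 0.389). Hsd17b7, the reductase of that complex, had the lowest ratio of all 33 from few molecules, 385 UMIs in control and 24 in mutant cells, or 6.74 and 1.15 CPM (0.171, 0.108 to 0.259). It stayed under the level bound, as did Lss, which closes the sterol rings, with 208 and 25 UMIs (0.330, 0.209 to 0.501), and Tm7sf2, a sterol reductase, with 238 and 49 UMIs (0.565, 0.407 to 0.772). Toward the end of the route, Ebp, the isomerase, stood at 44.1 and 32.3 CPM (0.732, 0.671 to 0.797), and was with Fdft1 the other measured gene of this group inside the 1.5-fold bound. Sc5d, a desaturase, stood at 22.3 and 8.94 CPM (0.40, 0.341 to 0.467). Dhcr7, a late reductase of the route, stood at 16.2 and 7.88 CPM (0.485, 0.408 to 0.573). The ratios within this group did not follow the order of the steps.

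The regulators did not move as 1 group: of the 5 measured, 2 were lower, 2 were higher and 1 lay inside the bound. Both INSIG genes differed between the libraries, in opposite directions. Insig1, which is itself a known SREBP target, stood at 46.9 CPM in control and 15.7 CPM in mutant cells (0.335, 0.298 to 0.376). Insig2, which is known to respond less to SREBP, stood at 15.3 CPM in control and 27.0 CPM in mutant cells (1.77, 1.59 to 1.97). The SREBP genes also lay on opposite sides of 1. Srebf2, whose product mainly drives sterol genes, stood at 17.6 and 10.3 CPM (0.587, 0.505 to 0.681). Srebf1, whose product mainly drives fatty acid genes, stood at 6.81 and 12.7 CPM (1.86, 1.59 to 2.18), from 389 and 264 UMIs at a locus that Rai1 overlaps on the other strand. Scap, the escort protein, was below the level bound and its interval held 1, with 4.81 and 3.89 CPM (0.809, 0.623 to 1.04). Stard4, a sterol carrier of the cytosol, stood at 39.5 and 27.0 CPM (0.684, 0.622 to 0.75), just inside the bound of 1.5-fold. The calls nearest the bound rest on the weighting: as a mean over cells with equal weight, Srebf2 had a ratio of 0.669, inside the bound, and Stard4 one of 0.664, past it.

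The fatty acid genes summed to 244 CPM in control and 140 CPM in mutant cells (ratio 0.573, 0.550 to 0.596), while the 19 sterol synthesis genes together stood at 746 and 296 CPM (0.397, 0.387 to 0.408), with intervals that do not overlap. Scd2 supplied 6408 of the 13967 control UMIs of the fatty acid genes. Without Scd2 the other 7 had a ratio of 0.489 (0.461 to 0.518), nearer to the sterol sum but with an interval still above it. All 8 fatty acid genes had an interval below 1, for which no share of all genes was computed. Of the 6 measured, 4 were lower by 1.5-fold, against 20.0% of all measured genes. Acly, which makes cytosolic acetyl-CoA from citrate for both routes, stood at 40.1 CPM in control and 19.4 CPM in mutant cells (0.483, 0.434 to 0.538). Acaca, the carboxylase that commits acetyl-CoA to fatty acids, stood at 9.98 and 4.61 CPM (0.462, 0.369 to 0.575). Fasn, the fatty acid synthase, stood apart from the rest of this group, at 27.3 CPM in control and 6.68 CPM in mutant cells (0.245, 0.204 to 0.292). Elovl6, which lengthens its product, stood at 28.3 and 15 CPM (0.532, 0.470 to 0.601). Over cells of all depths together, the desaturases differed least among the measured genes. Scd2, a stearoyl-CoA desaturase, stood at 112 and 75.4 CPM (0.672, 0.635 to 0.710), inside the 1.5-fold bound. Within each depth class given below, its ratio was past that bound. Fads1, which desaturates polyunsaturated fatty acids, stood at 22.7 and 16.9 CPM (0.745, 0.660 to 0.838). Scd1 and Fads2, under the level bound, had 98 and 130 control UMIs and 19 and 24 mutant UMIs, with ratios of 0.532 (0.307 to 0.876) and 0.507 (0.313 to 0.788).

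Other lists of lipid metabolism, outside the 33, stand beside the 20.0% of all measured genes that were lower and the 11.8% that were higher. Among 10 measured genes that process SREBP, 1 was lower, Erlin1 of the INSIG degradation machinery (0.565, 0.444 to 0.712), and the list median log2 ratio was -0.22. In the isoprenoid side branches 2 of 8 were lower: Pdss1, which builds the ubiquinone tail, at 0.306 (0.246 to 0.378), and Pggt1b, a prenyltransferase subunit, at 0.609 (0.497 to 0.741), with a list median of -0.42. None of 9 sterol efflux and transport genes was lower and 2 were higher, the lysosomal sterol carrier Npc2 (1.68, 1.62 to 1.74) and the LXR gene Nr1h2 (1.64, 1.46 to 1.84), with a list median of 0.24. Of 10 genes of fatty acid activation and elongation 5 were lower, with a list median of -0.57: the elongase Elovl1 at 0.426 (0.385 to 0.470), the acyl-CoA synthetases Acsl1 at 0.403 (0.308 to 0.521) and Acsl5 at 0.526 (0.455 to 0.605), and the dehydratase Hacd3 at 0.460 (0.375 to 0.561) had the clearest intervals. Of 6 genes that supply NADPH, the reductant both routes use, 3 were lower: Idh1 (0.340, 0.301 to 0.383), Mthfd1 (0.505, 0.420 to 0.605) and Pgd (0.557, 0.509 to 0.609), with a list median of -0.49. All these medians stand beside -0.14 for all measured genes. The counts of SREBP processing (1 of 10 lower) and of the isoprenoid branches (2 of 8 lower) lie under or near the 20.0% of all genes and are no results about those lists. Those of sterol efflux and transport (none of 9 lower, 2 of 9 higher) rest on few genes beside 20.0% and 11.8%. They are no result about that list either.

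Lists for taking up, burning or storing fatty acids held no measured gene that was lower by the 1.5-fold rule. Genes under the level bound went both ways, such as Cpt1a of the oxidation list (0.316, 0.188 to 0.503) and Agpat2 of the glycerolipid list (3.45, 2.57 to 4.63). In fatty acid uptake and binding 3 of 5 were higher and none lower: the lipoprotein receptor Vldlr stood at 6.70 CPM in control and 96.8 CPM in mutant cells (14.4, 12.9 to 16.1), beside Fabp4 (3.20, 2.88 to 3.55) and Slc27a3 (2.57, 2.24 to 2.94), with a list median of 1.36. In glycerolipid and droplet genes 3 of 6 were higher, namely Hilpda (3.50, 3.28 to 3.73), Pnpla2 (2.84, 2.46 to 3.28) and Plin2, a droplet coat protein (2.08, 1.96 to 2.21), with a list median of 0.52. Of 15 fatty acid oxidation genes none was lower and 2 were higher, Ppard (3.50, 2.90 to 4.23) and Cpt2 (1.58, 1.33 to 1.87), and the list median was -0.14. That count lies near the 11.8% of all measured genes that were higher, so it is no result about oxidation. The sum of 14 hypoxia-responsive genes was 6.33-fold higher in the mutant (6.22 to 6.43), and its part in these lists was not tested.

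Arterial and venous endothelium were split by marker gates, and the sterol synthesis genes were lower in the mutant in each. In cells with arterial and without venous markers the sum stood at 868 CPM in 1418 control cells and 334 CPM in 752 mutant cells (ratio 0.385, 0.364 to 0.406). In cells with venous and without arterial markers it stood at 726 CPM in 2250 control cells and 273 CPM in 617 mutant cells (0.376, 0.357 to 0.397). The arterial sum was the higher in both libraries, while the ratios of both classes had overlapping intervals. The arterial-gated cells were also the shallower, with means of 6319 and 6511 UMIs per cell in control and mutant against 10325 and 8995 in venous-gated cells, and the part of depth in the arterial level was not tested. Of the measured members 23 of 28 were lower in the arterial-gated cells, where 26.1% of all measured genes were, and 22 of 27 in the venous-gated cells, where 19.4% were. Cells with both or with neither set of markers gave 0.396 and 0.397. Insig1 had a ratio of 0.442 (0.358 to 0.541) in arterial-gated and 0.288 (0.223 to 0.366) in venous-gated cells, with intervals that overlap.

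The libraries differed in the share of cycling cells, so the genes were also compared within cycling and within other cells. This split also follows depth, since its bound is a fixed number of UMIs in unthinned cells: 13.3% of control cells under 2500 UMIs and 97.9% of those of 10000 or more were cycling, against 9.65% and 87.6% in the mutant. The part of depth in the values of this split was not tested. In cycling cells the sterol synthesis sum was 729 CPM in control and 292 CPM in mutant cells (0.401, 0.389 to 0.414), and 20 of 27 measured members were lower, against 18.9% of all measured genes. In cells under the cycling bound it was 884 and 304 CPM (0.344, 0.327 to 0.363), and 23 of 28 were lower, against 31.2%. The fatty acid sum had a ratio of 0.570 (0.542 to 0.598) in cycling and 0.416 (0.387 to 0.447) in other cells. Scd2 had ratios of 0.674 (0.628 to 0.723) in cycling and 0.420 (0.381 to 0.461) in other cells, and supplied 1449 of the 2513 fatty acid UMIs in control cells under the bound. Without Scd2 the sum of the other 7 genes had ratios of 0.490 (0.456 to 0.525) and 0.411 (0.367 to 0.459), with intervals that overlap. Srebf1 had a ratio of 1.79 (1.47 to 2.18) in cycling cells and of 1.31 (0.971 to 1.77) in other cells, where its interval held 1. Insig2 had ratios of 1.60 (1.40 to 1.82) and 1.82 (1.45 to 2.29).

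Hypoxia-gene UMIs per cell, counted after thinning each cell to 2500 UMIs, gave a further split, since the sum of these genes differed so widely between the libraries. The 2465 control and 58 mutant cells with 0 such UMIs had sterol synthesis sums of 705 and 310 CPM (0.439, 0.372 to 0.515). Cells with 1 to 2 had 756 and 311 CPM (0.411, 0.388 to 0.434), and cells with 3 to 5 had 833 and 281 CPM (0.337, 0.318 to 0.357). In the control the sum went from 705 to 833 CPM over these bins while the mean depth went from 11110 to 7925 UMIs per cell. The sum also differed by depth, at 1040 CPM in control cells under 2500 UMIs and 706 CPM in those of 10000 or more, and the part of depth in the bins was not tested. In the mutant it lay between 281 and 311 CPM in all 4 bins, the last of which held 986 mutant cells with 6 or more at 291 CPM. Insig2 stood above 1 in each bin, with ratios of 1.72 (0.881 to 3.04), 1.39 (1.10 to 1.75) and 1.57 (1.15 to 2.16). Srebf1 did not, with ratios of 0.698 (0.0838 to 2.56), 1.64 (1.15 to 2.30) and 1.16 (0.725 to 1.89). The first Srebf1 value rests on 2 mutant UMIs.

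Cells with smooth muscle genes, 65 in the control and 68 in the mutant, had sterol sums of 705 and 325 CPM (0.461, 0.379 to 0.558), and the rest gave 0.396 (0.385 to 0.407). In control cells with a Y-linked UMI the sum was 732 CPM, and in control cells with Xist and no Y-linked UMI 740 CPM, which against mutant cells with Xist (293 CPM) gave 0.396 (0.384 to 0.408). Blood-gated control cells, 60 in number, stood at 442 CPM. Ungated cells, 204 in the control and 153 in the mutant, stood at 635 and 387 CPM (0.608, 0.515 to 0.715), with medians of 4481.5 and 1061 UMIs per cell. These cells passed none of the endothelial, blood, erythroid, mesenchyme and neural gates, or passed several of them.

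**Figure D3:**
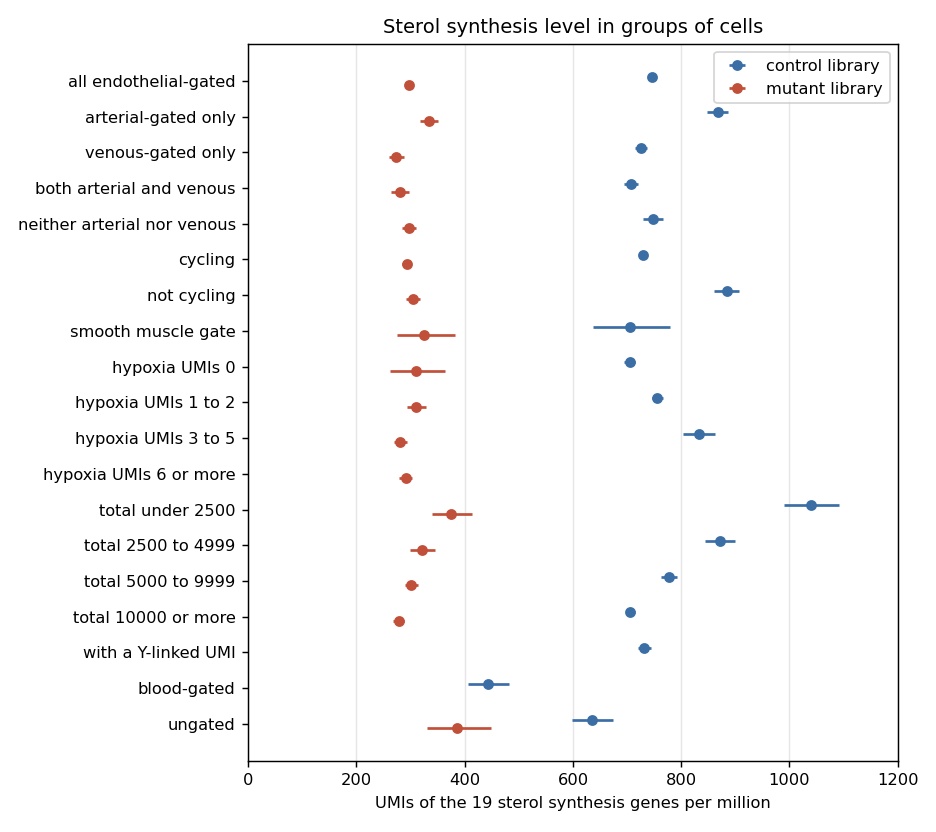
Summed level of the 19 sterol synthesis genes in CPM, in groups of cells of the control (blue) and the mutant library (red); bars are exact Poisson 95% intervals, and a group with under 50 cells in a library has no point for it. In each group with both points the mutant lies below the control (1040 against 375 in endothelial-gated cells under 2500 UMIs, 635 against 387 in ungated cells).

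The lower sterol synthesis level of the mutant was seen across the whole distribution of cells. Endothelial-gated cells were thinned to 2500 UMIs each, which left out 992 control and 694 mutant cells below that depth and kept 5348 and 2373. A cell then had a mean of 1.94 UMIs of the 19 sterol synthesis genes in the control and 0.779 in the mutant. No such UMI was found in 19.3% of control cells (18.3 to 20.4) and in 48.3% of mutant cells (46.3 to 50.4), and before thinning these shares were 7.38% and 27.9%. Poisson counts with the thinned means would leave 14.4% and 45.9% of cells at 0, so a cell at 0 is not shown to lack this RNA. Cells with 4 or more made up 15.3% of the control (819 cells) and 1.73% of the mutant (41 cells). The highest cell had 13 in the control and 8 in the mutant, and the variance over the mean was 1.42 and 1.23. For the 8 fatty acid genes, 56.7% of control and 73.4% of mutant cells had no UMI after thinning, with means of 0.660 and 0.351. Every cell type needs these enzymes, so no gated type could serve as one that lacks them, and the part of free RNA in these shares was not tested.

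**Figure D4:**
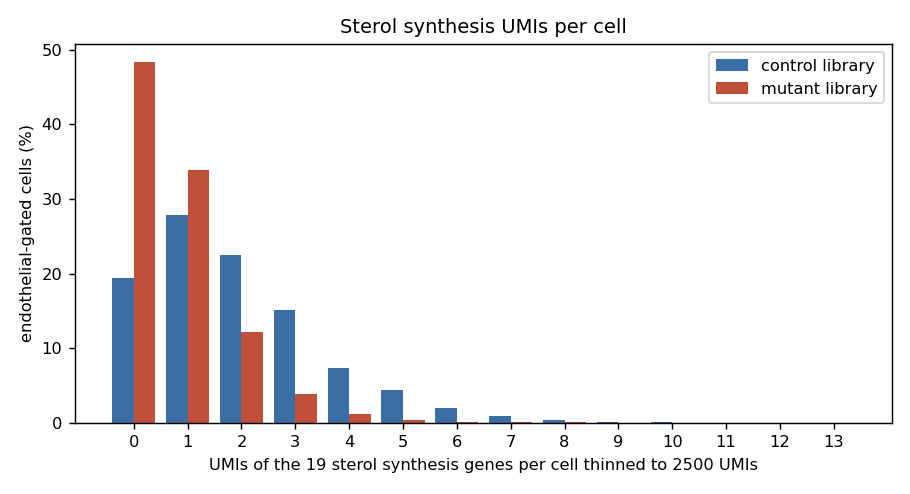
Share of endothelial-gated cells (%) by the number of UMIs of the 19 sterol synthesis genes they held after thinning to 2500 UMIs, for 5348 control cells (blue) and 2373 mutant cells (red). The mutant distribution peaks at 0 (48.3% of cells) and the control at 1 (27.8%).

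Within the control library the members differed in how far they went together from cell to cell. For each gene, its UMIs were compared between thinned cells that held 4 or more and cells that held 0 UMIs of the other sterol synthesis genes. Of all 33 members 22 had an interval above 1, and these included 15 of 19 sterol synthesis genes. Of the 29 members with at least 10 UMIs in the cells that held 0, 20 had, 13 of them among 17 sterol synthesis genes. Of the 4 members under this minimum, those with an interval above 1 rest on few molecules: Hsd17b7 was 3.40-fold higher (1.45 to 8.87) from 8 UMIs in the cells that held 0, and Lss 4.24-fold (1.09 to 24.0) from 3. Sc5d was 3.60-fold higher (2.37 to 5.60), Msmo1 2.89-fold (2.35 to 3.55), Hmgcs1 2.72-fold (2.16 to 3.44) and Fdft1 2.36-fold (1.77 to 3.14). Outside the sterol enzymes, Insig1 was 3.08-fold higher (2.34 to 4.09), Fasn 3.04-fold (2.05 to 4.58), Srebf1 3.30-fold (1.70 to 6.82) and Srebf2 2.75-fold (1.73 to 4.47). Ggps1 (0.982, 0.612 to 1.56), Ebp (1.14, 0.879 to 1.48), Acaca (0.958, 0.524 to 1.73), Acly (1.18, 0.880 to 1.57), Fads1 (1.08, 0.729 to 1.58) and Insig2 (1.26, 0.803 to 1.98) showed no difference beyond counting error. The same held for Mvk (1.39, 0.991 to 1.95), Tm7sf2 (1.62, 0.706 to 3.78) and Scap (1.47, 0.632 to 3.49). For scale, by the same measure Actb stood at 1.03 (1.01 to 1.05), Cdh5 at 1.23 (1.13 to 1.34) and Pecam1 at 1.39 (1.22 to 1.59). Their intervals also lay above 1, while that of Map3k3 held 1 (0.923, 0.483 to 1.73). Values up to about that of Pecam1 were thus also reached by genes of no lipid route. The share of all genes with an interval above 1 was not computed, so the counts of members have no background here. These cells share 1 library and 1 depth, but the control cells with 4 or more had a median total of 7679 UMIs before thinning, against 9488 for those with 0, and 469 against 349 CPM of hypoxia genes. The part of these differences in the pattern was not tested.

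**Figure D5:**
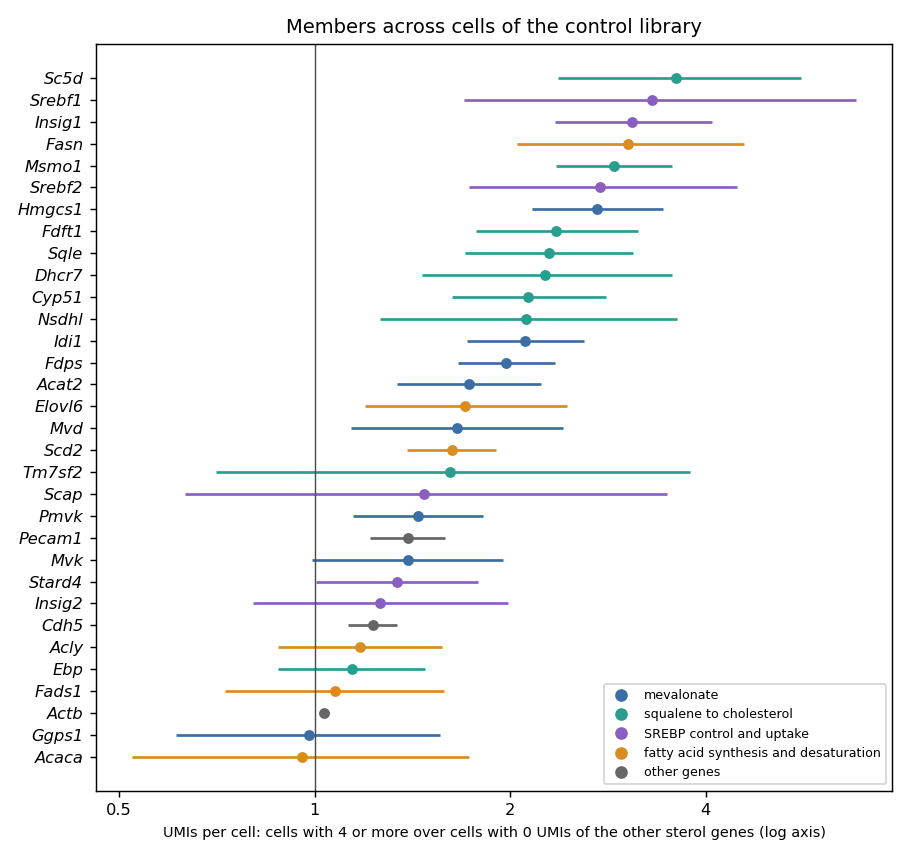
UMIs per cell of each gene in control cells with 4 or more UMIs of the other sterol synthesis genes, divided by those in control cells with 0 (log axis, cells thinned to 2500 UMIs), for genes with at least 10 UMIs in the latter cells; bars are exact 95% intervals for counting error, colours the 4 groups of members and grey other genes. Among the genes drawn Sc5d lies highest at 3.60, Insig1 and Fasn lie near 3, and Ggps1 and Acaca lie at or just below 1.

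Some members differed strongly between shallow and deep cells, in both libraries. Scd2 stood at 545 CPM in control cells under 2500 UMIs and at 83.1 CPM in control cells of 10000 or more, and at 328 and 49.6 CPM in the mutant. Scap, Srebf1 and Srebf2 were 7.55, 5.53 and 5.18 times as high in the shallow as in the deep control cells, and 7.10, 6.16 and 6.24 times in the mutant. Acat2, Mvk, Pmvk, Fdps, Ggps1 and Ebp had ratios of shallow to deep cells between 0.658 and 1.18 in both libraries. Cells under 2500 UMIs were 15.6% of control and 22.6% of mutant endothelial-gated cells, and their median mitochondrial share was 14.8% and 10.7%, against 3.21% and 2.16% in cells of 10000 or more. Within the same depth, Scd2 was lower in the mutant, at 0.601 (0.529 to 0.682) in the shallow and 0.597 (0.542 to 0.656) in the deep cells, with 0.621 and 0.520 in the classes between. All of these ratios are past the 1.5-fold bound, while the Scd2 ratio over all depths, 0.672, lay inside it. Srebf1 had ratios of 1.88 (1.26 to 2.83), 1.28 (0.846 to 1.92), 1.69 (1.21 to 2.36) and 1.69 (1.31 to 2.17) from the shallowest to the deepest of 4 depth classes, and the interval of the next to shallowest class held 1. The sterol synthesis sum had ratios between 0.361 and 0.394 in 4 depth classes, and the fatty acid sum between 0.477 and 0.553. Over all depths the sums had ratios of 0.397 and 0.573, each above the range of its classes. The part of the mix of depths in the ratios over all cells was not tested.

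Gene positions (GENCODE vM21, GRCm38) put the 33 members on 15 chromosomes, with Nsdhl and Ebp on X. The level of some is uncertain because their loci overlap another gene and the strand setting of the counting is not given in the sources used here. Fdps overlaps Gm43738 and Tm7sf2 overlaps Vps51 on the same strand, and Mvd, Ggps1, Fdft1, Lss, Cyp51, Srebf1, Acaca and Elovl6 overlap a gene on the other strand (Arid4b for Ggps1, Ctsb for Fdft1, Akap9 for Cyp51 and Rai1 for Srebf1). Close copies took few counts: Acat3 took 6 UMIs in control and 2 in mutant cells, Scd3 1 and 0, Scd4 4 and 0, and Idi2 none in either.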

How the data were processed

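Raw UMI counts of 27998 genes in 2 libraries were deposited by the authors; per the submitters' processing notes the counting tool was Cell Ranger, with no version, on genome build mm10. Those notes give no annotation release or cell filter. The deposited cell table gives each cell's library, total, mitochondrial fraction and a size factor, a ratio per the file headers, which was not used. Cells were put in the control or mutant group by the genotype word that matches the sample titles.

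Cells were gated on marker genes. Endothelial-gated cells had at least 3 UMIs over at least 2 of 10 markers and passed none of the blood, erythroid, mesenchyme and neural gates. Each of these other gates took at least 5 UMIs over at least 3 genes. A cell passing only 1 of them took its name if it failed the endothelial gate or had more UMIs of that list. The remaining cells were ungated. Smooth muscle gates took at least 5 UMIs over 2 genes, arterial and venous gates at least 3 over 2. No doublet caller was run, no doublets were removed and free RNA was not removed. UMIs were summed per library and divided by the class total. Intervals at 95% were exact: Poisson for levels, conditional binomial for ratios and Clopper-Pearson for shares. Before taking log2, 0.5 UMI was added on each side, and a count of 0 was read as up to 3 UMIs. Python 3.11.15 was used with pandas 2.3.3, numpy 2.4.6, scipy 1.17.1 and matplotlib 3.10.9. Endothelial-gated cells held 57124939 control and 20805787 mutant UMIs. Interval code was tested on simulated data. No p-value was computed, since each group had 1 library.

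The members and lists were chosen with earlier results of these data known. All members are named; from other lists at most 4 measured genes past 1.5-fold, by the interval bound nearest to 1. Promoters and start sites are from RefSeq (GRCm38.p6), positions from GENCODE vM21. Alternatives were scaling by TMM (edgeR 4.0.16), median-of-ratios or reduced totals, other gates and cells, thinning, equal weight per cell, other level filters and a 2-fold bound. After the data were seen, a mitochondrial fraction of at most 0.1 and at most 2 hypoxia-gene UMIs per 2500 were added.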

Additional observations from a re-analysis of the deposited data

How the results depend on the processing

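No paired analysis was possible because each group has 1 library. The number of members at least 1.5-fold lower was 19 of 27, where 20.0% of all measured genes were lower. It lay between 15 and 24 under every alternative except a level filter of 20 CPM. The 2-fold bound gave 15 of 27, against 6.45% of all measured genes, and no filter on low values 24 of 33, against 29.9%. Cells under the cycling bound gave 23 of 28, against 31.2%. The filter of 20 CPM left 17 members, 12 of them lower, against 19.3%. The 19 sterol synthesis genes had a log2 ratio of -1.33. It was -1.28 with TMM, -1.26 with median-of-ratios factors and -1.21 with totals without mitochondrial, ribosomal-protein and hemoglobin genes. In cells under the cycling bound it was -1.54, and in cells with at most 2 hypoxia-gene UMIs -1.23. Under the others it stayed inside the counting interval of the main value. The fatty acid genes had -0.80. They had -0.73 with median-of-ratios factors, -0.68 with reduced totals, -1.27 under the cycling bound, -0.91 after thinning, -0.70 with equal weight per cell and -1.13 at most 2 hypoxia-gene UMIs. The cause of these shifts was not tested. Of 462 values of single members under 14 alternatives, 56 lay outside the counting interval of the main value. That comparison leaves out the counting error of the alternative value, which can rest on fewer UMIs. Among members past 1.5-fold, 0 changed sign, and Ggps1, inside the bound, changed sign in 5. By more than 1.5-fold moved Tm7sf2, Hsd17b7, Scap and Scd2 in cells under the cycling bound (log2 -1.51, -1.92, -0.94 and -1.25), Lss, Scd1 and Fads2 after thinning (-0.77, -1.51 and -0.35), Hsd17b7 with equal weight per cell (-1.92), and Lss, Scd1 and Scd2 at most 2 hypoxia-gene UMIs (-2.29, -2.42 and -1.19). With equal weight per cell Srebf2 (log2 -0.58) was no longer past 1.5-fold. In all 17 alternatives 9 members counted as lower. Depth limits the 6 members under 5 CPM, of which Hsd17b7, Lss, Scd1 and Fads2 rest on 19 to 25 mutant UMIs.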
